A study of Homo sapiens with 4 samples.

Results

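The core circRNAs of AGS cells were the circular RNAs that had back-splice reads in every library of the series. Members were chosen by their deposited counts: a circRNA entered when its count was above 0 in each of the 4 libraries. This rule kept 1011 of 7587 circRNAs that had reads in any library (13.3%), out of 11760 listed, and the core circRNAs came from 816 of 3532 host genes. The rule used the counts themselves, so the abundance of the members is a description and was not tested. It did not use the direction of any difference between the groups.

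AGS is an established line of human gastric adenocarcinoma cells. The tested cells received FLAG-DDX5 (DDX5), a plasmid that expresses the tagged RNA helicase, and the control cells received the FLAG-tagged vector without an insert (NC), with 2 libraries in each group. The design asked which circRNAs change in level when DDX5 is overexpressed. Libraries were made after removal of rRNA and treatment with RNase R, which degrades linear RNA and leaves circles, so the libraries give no level of the linear host transcripts. Both groups are transfected cells of this line, untransfected cells were not analysed here, and the labels do not say whether the libraries of a group came from separate cultures. The study describes the 2 libraries of each treatment as biological replicates. The p-values rest on the spread between these libraries, shared across all circRNAs tested, and how much of it is technical is unknown here. Of the 4671 tested, 3660 were not core circRNAs, so the p of a member can be larger than its own replicates would give. No circRNA of the DDX5 gene was among those analysed here, so the overexpression could not be checked in these counts.

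In back-splicing, an exon end is spliced to an exon start that lies before it in the same transcript, which closes the RNA between them into a ring. Long introns on both sides and RNA-binding proteins that bring them together are known to favour it. The product has no free ends and is therefore stable, and some circles are known to bind miRNAs or proteins. DDX5 is a DEAD-box RNA helicase with known roles in transcription and splicing.

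The back-splice junction is what sets a circle apart from the linear transcript, and it carries each count. The junctions below belong to some of the circles with an unadjusted p under 0.05 by edgeR and to some of the most abundant ones. Each shows 25 bases on either side, read from GENCODE 29 transcripts on GRCh38, with the end of the last exon in lower case and the start of the first exon in capitals.
GSE1 exon 2, chr16:85633914-85634132, plus strand: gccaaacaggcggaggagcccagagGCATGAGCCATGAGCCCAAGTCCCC
MAD1L1 exons 6 to 10, chr7:2213212-2219456, minus strand: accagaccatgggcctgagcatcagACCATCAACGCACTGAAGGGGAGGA
RHOBTB3 exons 6 to 7, chr5:95755396-95763620, plus strand: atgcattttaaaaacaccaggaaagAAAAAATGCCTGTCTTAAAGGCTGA
CDYL exon 2, chr6:4891713-4892379, plus strand: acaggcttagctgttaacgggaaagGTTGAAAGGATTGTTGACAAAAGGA
ASXL1 exons 2 to 4, chr20:32366384-32369123, plus strand: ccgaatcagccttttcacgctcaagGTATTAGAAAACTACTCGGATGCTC
CAMSAP1 exons 2 to 3, chr9:135881633-135883078, minus strand: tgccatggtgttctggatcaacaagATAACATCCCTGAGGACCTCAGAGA
GCN1 exons 29 to 31, chr12:120154970-120155719, minus strand: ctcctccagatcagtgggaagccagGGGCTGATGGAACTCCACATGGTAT

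The circle of GSE1 exon 2 holds 219 bases, all of them coding in the transcript used. It was the only core circRNA past the adjusted threshold, so it is printed whole, with capitals for the first and last 25 bases, which are neighbours in the circle.
GSE1 exon 2, chr16:85633914-85634132, plus strand: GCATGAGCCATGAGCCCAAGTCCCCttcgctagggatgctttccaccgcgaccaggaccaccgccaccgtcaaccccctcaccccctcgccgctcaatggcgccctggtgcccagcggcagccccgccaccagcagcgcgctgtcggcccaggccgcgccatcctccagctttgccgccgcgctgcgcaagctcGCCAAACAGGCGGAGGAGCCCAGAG

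Sequencing gave 78377 and 60178 back-splice reads for DDX5 cells, against 73173 and 97961 reads for NC cells. RPM values are reads per 1000000 back-splice reads of a library, so 1 read was worth 12.8 and 16.6 RPM in DDX5 cells and 13.7 and 10.2 RPM in NC cells. The core circRNAs held 58.3% (95% Wilson interval 57.9 to 58.6) and 62.8% (62.5 to 63.2) of the reads of the DDX5 libraries. They held 59.2% (58.8 to 59.6) and 57.3% (57.0 to 57.6) of the reads of the NC libraries. These intervals cover counting error only. The median core circRNA had 26 and 22 reads in the DDX5 libraries, against 25 and 32 reads in the NC libraries. In total over the 4 libraries a core circRNA had between 21 and 3946 reads, with a median of 104. The other 6576 detected circRNAs had a median of 11.

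The most abundant circles of these cells were core circRNAs. They made up 10 of the 10 circRNAs with the highest mean RPM, 47 of the top 50, 92 of the top 100 and 436 of the top 500, as the rule favours abundant circles. Mean RPM ranged from 71.5 to 12785, with a median of 341. A few members carried much of the signal: the first 10 held 12.7% of the RPM of the core circRNAs, the first 50 held 30.2%, and 149 members held 50%.

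**Figure D1:**
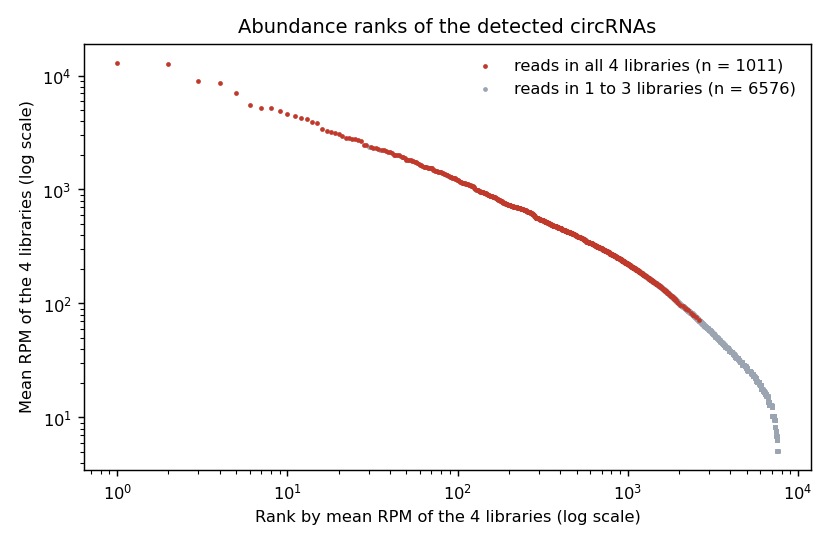
Mean RPM of the 4 libraries against rank for every detected circRNA, both on log axes, with the 1011 core circRNAs drawn over the 6576 circRNAs that had reads in 1 to 3 libraries. The 10 highest ranks are all core circRNAs, and no core circRNA has a mean below 71.5 RPM.

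The leading circle came from RELL1, a relative of the TNF receptor family member RELT. Its exons 4 to 6 gave 11917 and 13128 RPM in DDX5 cells, against 13489 and 12607 RPM in NC cells. The single-exon circle of CDYL, a chromodomain corepressor, gave 13014 and 14540 RPM in DDX5 cells against 9826 and 13444 RPM in NC cells. Both circles had overlapping groups, with log2 fold changes of -0.17 ± 0.09 (SE) for RELL1 and 0.13 ± 0.09 for CDYL.

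ASXL1, a chromatin regulator that acts with the deubiquitinase BAP1, came next with 8102 and 10535 RPM in DDX5 cells against 9361 and 7544 RPM in NC cells. CAMSAP1, which binds the minus ends of microtubules, gave 11266 and 6182 RPM in DDX5 cells against 7352 and 9779 RPM in NC cells. For this circle the libraries of the same group lay further apart than the group means, which were 8724 ± 3595 RPM in DDX5 cells against 8566 ± 1716 RPM in NC cells (SD, n = 2 each).

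The members that followed reproduced closely. GCN1, which acts at stalled ribosomes upstream of the kinase GCN2, had 6609 and 6830 RPM in DDX5 cells against 7284 and 7309 RPM in NC cells. BANP, a nuclear DNA-binding protein, had 5384 and 5151 RPM in DDX5 cells against 5753 and 5614 RPM in NC cells. Both lay lower in each DDX5 library without passing the test, with log2 fold changes of -0.23 ± 0.14 and -0.21 ± 0.17 (SE). PVT1, a long noncoding RNA encoded beside MYC, had 4938 and 5052 RPM in DDX5 cells against 5712 and 5073 RPM in NC cells.

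Ranks 9 to 15 were held by DYNC1H1, RHOBTB3, DHX34, EPHB4, SDF4, PRKAR1B and FAM13B. DYNC1H1 encodes the heavy chain of cytoplasmic dynein, DHX34 a helicase of nonsense-mediated decay, EPHB4 an ephrin receptor and SDF4 a Golgi calcium-binding protein. PRKAR1B holds protein kinase A inactive until cAMP binds. Their means lay between 3910 and 4864 RPM in DDX5 cells, against between 3429 and 5304 RPM in NC cells. Of the 10 leading core circRNAs, 10 and 8 were also among the 10 leading ones of the DDX5 libraries, against 10 and 10 for the NC libraries. The first 10 were thus nearly the same set of circles in each library, which is partly built in, since the mean includes every library. Of the first 50, 43 and 46 were kept in the DDX5 libraries, against 43 and 42 in the NC libraries.

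**Figure D2:**
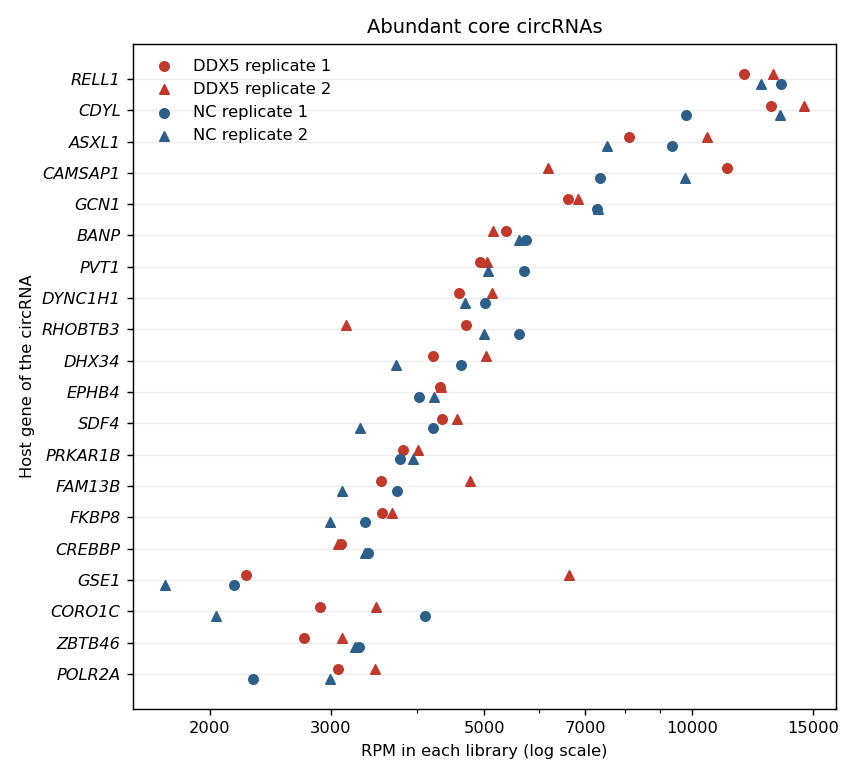
RPM in each library (log axis) of 20 of the 21 core circRNAs with the highest mean RPM, named by host gene, with DDX5 libraries drawn above NC libraries in each row and replicates 1 and 2 as circles and triangles. For GSE1 one DDX5 library, at 6647 RPM, stands apart from the other libraries, which lie between 1725 and 2258 RPM.

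A total of 1 core circRNA rose in DDX5 cells past the adjusted threshold and 0 fell (quasi-likelihood test of edgeR on the 4671 circRNAs with at least 10 reads in total, with p-values adjusted by Benjamini-Hochberg over all of them). This is 0.0989% of the core circRNAs, beside 0.0856% of all circRNAs tested for rises and 0% for falls. The circle was that of GSE1 exon 2, whose host encodes a protein found with the LSD1 and CoREST corepressors. It had 2258 and 6647 RPM in DDX5 cells, against 2173 and 1725 RPM in NC cells, from 177 and 400 reads against 159 and 169 reads. The log2 fold change was 1.05 ± 0.25 (SE), with an adjusted p of 0.0432 by edgeR. DDX5 replicate 1 lay beside the NC libraries, and the difference rests on DDX5 replicate 2. Without DDX5 replicate 2 the log2 fold change of GSE1 was 0.18 with an adjusted p of 0.987 by edgeR, and by DESeq2 with all libraries the adjusted p was 0.813.

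At an unadjusted p under 0.05, edgeR gave 2 core circRNAs higher in DDX5 cells and 3 lower. These are 0.198% and 0.297% of the members, beside 1.28% higher and 1.37% lower among all circRNAs tested. Together they are 0.495% of the members, whereas a calibrated test gives a share of 0.05 without any change. The test was thus strict for the members, and their smaller share does not show that they change less. Beside GSE1, the higher one was the circle of MAD1L1 exons 6 to 10. MAD1L1 is a protein of the spindle assembly checkpoint. The circle had 727 and 964 RPM in DDX5 cells against 205 and 255 RPM in NC cells, with a log2 fold change of 1.75 ± 0.84 (SE). The groups did not overlap, but the circle did not pass adjustment over all circRNAs, with an unadjusted p of 0.0382 and an adjusted p of 0.950 by edgeR.

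The lower ones included circles of RHOBTB3 and ARF3. RHOBTB3 had 4708 and 3157 RPM in DDX5 cells against 5617 and 4992 RPM in NC cells. ARF3, a small GTPase of the Golgi, had 638 and 499 RPM in DDX5 cells against 1148 and 1225 RPM in NC cells. In both the groups did not overlap. The log2 fold changes were -0.52 ± 0.19 for RHOBTB3 and -1.16 ± 0.58 for ARF3 (SE), with p-values of 0.00611 and 0.0458 and an adjusted p of 0.950 each by edgeR.

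The next circles by p among those with separated groups did not reach an unadjusted p under 0.05 in edgeR's test. MAN2A1, a Golgi mannosidase, had 523 and 1064 RPM in DDX5 cells against 246 and 214 RPM in NC cells. COX5A, which belongs to cytochrome c oxidase, had 663 and 781 RPM in DDX5 cells against 109 and 296 RPM in NC cells. LARP4B, an RNA-binding protein of the La-related family, had 1518 and 1496 RPM in DDX5 cells against 656 and 919 RPM in NC cells. In these 3 circles both DDX5 libraries lay above both NC libraries.

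The zinc finger gene ZNF81 gave the highest log2 fold change of all members, 2.34 ± 1.28 (SE), from 44 and 29 reads in DDX5 cells against 12 and 3 reads in NC cells. On the other side, HBS1L, a GTPase that acts with Pelota in ribosome rescue, had 332 and 266 RPM in DDX5 cells against 957 and 674 RPM in NC cells. MYBL2, the cell cycle transcription factor B-Myb, had 855 and 831 RPM in DDX5 cells against 1613 and 1256 RPM in NC cells. MYOF, the membrane fusion protein myoferlin, had 319 and 515 RPM in DDX5 cells against 875 and 939 RPM in NC cells. For HBS1L, MYBL2 and MYOF both DDX5 libraries lay below both NC libraries. The lowest log2 fold change, -2.14, belonged to a circle of the alanyl-tRNA synthetase gene AARS with 6 and 5 reads in DDX5 cells against 16 and 43 reads in NC cells.

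**Figure D3:**
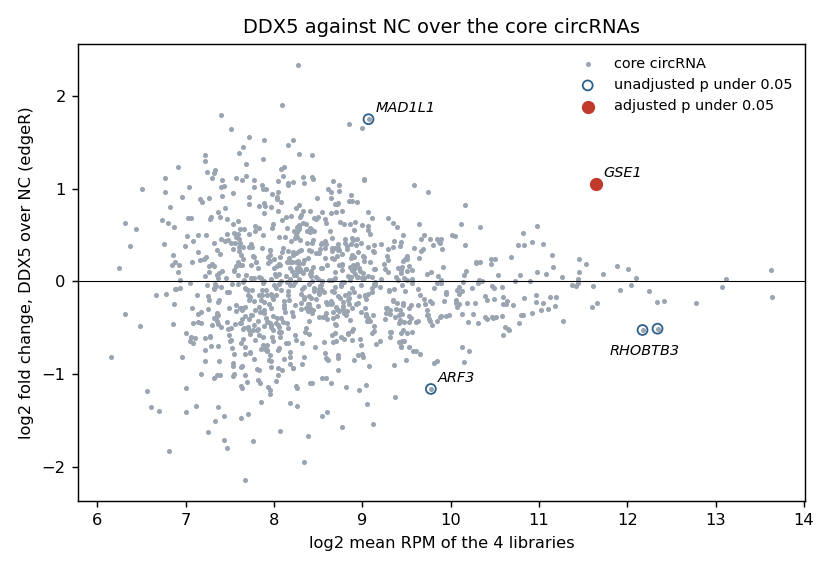
Log2 fold change of DDX5 over NC from edgeR against log2 mean RPM for the 1011 core circRNAs, with open circles for an unadjusted p under 0.05 (those described are labelled) and a filled red circle for an adjusted p under 0.05. Values spread from -2.14 to 2.34 and the spread narrows towards abundant circles, with GSE1 at 1.05 as the only adjusted call.

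As a group, the core circRNAs were centred near no difference. Their median log2 fold change was -0.04, with quartiles of -0.40 and 0.35 and an SD of 0.60. Over all 4671 circRNAs tested the median was -0.27 and the SD 3.77. The narrower range of the members follows in part from the rule, since a circle absent from a library cannot be a member. The centre depended on the scaling: with total back-splice reads in place of TMM factors the median was 0.06 for the core circRNAs and -0.16 for all circRNAs tested. Of the members 473 had a log2 fold change above 0 and 538 below (46.8% above), whereas with RLE factors 50.5% and with total reads 54.7% lay above 0. Changes of more than 2-fold were seen in 53 members upward and 56 downward in the fitted values. These are 5.24% and 5.54%, beside 23.6% and 35.6% of all circRNAs tested.

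Both DDX5 libraries exceeded both NC libraries in RPM for 183 core circRNAs (18.1%), beside 10.8% of all circRNAs tested. Both lay below both NC libraries for 130 (12.9%), beside 12.5%. A circRNA with reads in a single library, or without reads in a library of each group, cannot be separated. No member is of this kind, so these shares are not directly comparable with those of all circRNAs tested. Of those with separated groups, 58.5% were thus higher in DDX5 cells. This split turned with the scaling, to 134 above and 181 below with TMM factors (42.5% above) and to 157 above and 158 below with RLE factors. No direction of the group can be read from these counts.

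The spread between libraries of the same group was as large as the difference between groups. The log2 RPM of DDX5 replicates 1 and 2 differed with an SD of 0.979 over the core circRNAs, and 295 members (29.2%) differed by more than 2-fold. The NC replicates differed with an SD of 0.938, and 275 members (27.2%) by more than 2-fold. The mean of the DDX5 libraries differed from that of the NC libraries with an SD of 0.642, whereas the replicate differences alone would give 0.678. Group differences over the members were therefore no wider than those the replicates give. Counting error alone would give a replicate SD of 0.491 in DDX5 cells and 0.455 in NC cells, so most of the replicate spread lay beyond counting.

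The libraries repeated more closely at higher abundance. When the members were split by mean RPM into 4 bins of 252 or 253, in the highest bin the SD of the log2 difference between replicates was 0.673 in DDX5 cells and 0.588 in NC cells. In the lowest bin it was 1.11 in DDX5 cells and 1.18 in NC cells. Fitted changes of more than 2-fold were found for 4 circles of the highest bin (1.58%) and 49 of the lowest (19.4%). Larger folds were thus found mainly among circles with few reads.

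**Figure D4:**
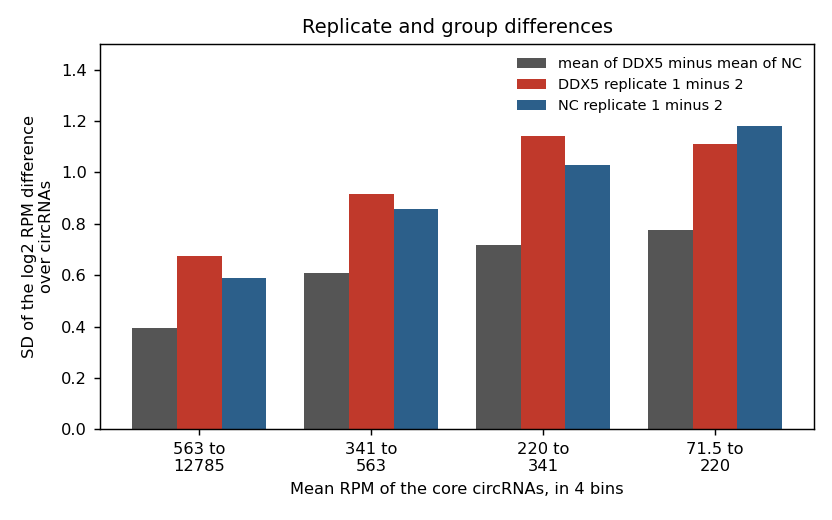
SD over circRNAs of the log2 RPM difference, for the mean of DDX5 minus the mean of NC and for replicate 1 minus replicate 2 in each group, in 4 bins of the core circRNAs by mean RPM. A difference between means of 2 libraries is narrower than one between single libraries even without any change: over all members the replicate differences alone would give a group SD of 0.678, and 0.642 was seen.

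Even abundant members could differ widely between replicates. The following were chosen after their values were seen, as the 3 widest gaps on the log2 scale in the highest bin. A circle of TMEM181 had 242 and 1446 RPM in DDX5 cells against 396 and 602 RPM in NC cells. A circle of ZNF398 had 1289 and 233 RPM in DDX5 cells against 1216 and 674 RPM in NC cells. A circle of SIPA1L3 had 1033 and 183 RPM in DDX5 cells against 656 and 500.2 RPM in NC cells. DDX5 replicate 2 was the highest library for TMEM181 and the lowest for ZNF398 and SIPA1L3. Across the members, the correlation of log2 RPM was 0.72 between the DDX5 libraries, 0.75 between the NC libraries and 0.72 to 0.77 between libraries of different groups. These values are across circRNAs, which are not independent replicates.

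The hosts of the core circRNAs were genes of many functions. Of the 1011 members, 727 (71.9%) belonged to none of the host lists, which do not cover every gene of a function and share a few genes. Chromatin regulators were the largest list, with 73 core circRNAs of 52 hosts, or 7.22% of the members beside 6.13% of the other detected circRNAs. CDYL, ASXL1 and CREBBP led it. CREBBP, a histone acetyltransferase, had 3100 and 3074 RPM in DDX5 cells against 3389 and 3358 RPM in NC cells, with a log2 fold change of -0.23 ± 0.24 (SE). Over the 73 the median log2 fold change was -0.03, with 9 circles separated above NC and 12 below in RPM, and 6 and 16 with TMM factors. Over all core circRNAs, 18.1% were separated above and 12.9% below in RPM, and 134 and 181 of 1011 with TMM factors. Over all circRNAs tested, 10.8% were separated above and 12.5% below in RPM, and 9.29% and 14.1% with TMM factors.

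Genes of mRNA processing and splicing hosted 34 core circRNAs in 27 hosts (3.36% beside 3.13%). The most abundant came from SAFB2, a scaffold attachment factor, with 2156 and 2991 RPM in DDX5 cells against 2200 and 1705 RPM in NC cells. The circle of HNRNPC, which binds uridine-rich stretches of pre-mRNA, had 1493 and 2077 RPM in DDX5 cells against 2214 and 1960 RPM in NC cells. The groups overlapped for both. The list had a median log2 fold change of -0.03, with 5 circles above and 3 below in RPM, and 4 and 7 with TMM factors. Over all core circRNAs the shares in RPM were the same 18.1% and 12.9%. Over all circRNAs tested they were 10.8% and 12.5% in RPM and 9.29% and 14.1% with TMM factors. The split of the list turned with the scaling.

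Genes known to act in circRNA formation and turnover hosted 6 core circRNAs, 1 per host. They included ADARB1, an adenosine deaminase that edits double-stranded RNA, METTL3, the catalytic subunit of the m6A methyltransferase, and ESRP1, an epithelial splicing regulator. METTL3 exons 2 to 3 gave 1620 and 1562 RPM in DDX5 cells against 984 and 980 RPM in NC cells, with a log2 fold change of 0.59 ± 0.46 (SE) and an adjusted p of 0.950 by edgeR. Its replicates lay close and the groups were separate, but the circle did not pass the test. The SE rests on the spread shared across circRNAs and is not measured on this circle alone. ADARB1 had 1633 and 1147 RPM in DDX5 cells against 1763 and 1215 RPM in NC cells.

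Kinase genes hosted 35 core circRNAs in 27 hosts (3.46% beside 3.47%). Among them was the circle of HIPK3 exon 2, a widely studied circRNA matched here by its circBase number, with 2118 and 2526 RPM in DDX5 cells against 1435 and 2603 RPM in NC cells. Its log2 fold change was 0.08 ± 0.32 (SE). BMPR2, a BMP receptor, had 1416 and 1496 RPM in DDX5 cells against 1613 and 1235 RPM in NC cells. TNIK, a kinase of the Wnt pathway, had 1697 and 1462 RPM in DDX5 cells against 1080 and 1399 RPM in NC cells. Of these 3 kinase circles TNIK alone had separate groups in RPM. Its nearest libraries were DDX5 replicate 2 at 1462 RPM and NC replicate 2 at 1399 RPM. With TMM factors, which were 1.090 and 0.9444 for these libraries, its groups overlapped.

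Cytoskeletal, motor and centrosome genes hosted 38 core circRNAs in 30 hosts (3.76% beside 3.79%), with a median log2 fold change of -0.20. A second circle matched by its circBase number, that of CORO1C exons 7 to 8, belongs to a coronin that binds actin. It had 2896 and 3490 RPM in DDX5 cells against 4100 and 2042 RPM in NC cells, so the NC libraries lay on both sides of the DDX5 libraries. Endocytosis and vesicle genes hosted 36 in 33 hosts (3.56% beside 4.17%), of which 8 were separated above NC and 1 below. With TMM factors 6 were above and 1 below. Over all core circRNAs the shares were 18.1% and 12.9% in RPM, and with TMM factors 134 and 181 of 1011 were separated. Over all circRNAs tested the shares were 10.8% and 12.5% in RPM and 9.29% and 14.1% with TMM factors. Nothing particular to this list was tested.

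Genes of ubiquitin ligases, ubiquitin proteases and ubiquitin-associated proteins took a smaller share of the core circRNAs than of the others, with 27 circles in 24 hosts (2.67% beside 4.74%). So did RNA export and nuclear pore genes, with 14 circles in 12 hosts (1.38% beside 2.14%). TNPO3, an importer of SR proteins, had 2182 and 2227 RPM in DDX5 cells against 2884 and 2603 RPM in NC cells, with a log2 fold change of -0.42 ± 0.29 (SE). XPO1, the main nuclear export receptor, had 1263 and 964 RPM in DDX5 cells against 1353 and 898 RPM in NC cells. Zinc finger transcription factors hosted 19 core circRNAs in 18 hosts (1.88% beside 1.57%), led by ZBTB46 and ZKSCAN1. These shares are descriptions with no test. No member of any list passed the adjusted threshold or had an unadjusted p under 0.05 in edgeR's test. GSE1, MAD1L1, RHOBTB3 and ARF3, whose circles had such a p, are in none of the lists. The lists therefore do not show that genes of these functions lack such circles.

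The labelled cell type was checked on marker hosts. Of 43 gastric and epithelial marker genes, 12 hosted any detected circRNA. Only 4 of them, GRHL2, ESRP1, VIL1 and EPCAM, hosted core circRNAs, 5 in all. Most listed markers thus hosted no circle, and a marker without one may still be expressed, so the check is weak. The circle of GRHL2, an epithelial transcription factor, had 2156 and 914 RPM in DDX5 cells against 1449 and 2491 RPM in NC cells. That of VIL1, the villin of brush borders, had 957 and 598 RPM in DDX5 cells against 752 and 602 RPM in NC cells. The 39 stromal and immune markers hosted 0 core circRNAs and 1 of the other detected circRNAs.

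Core circRNAs were short. Their genomic span had a median of 3221 bases, with quartiles of 1020 and 9424, against 4913 bases (1678 and 12370) for the other detected circRNAs. Spans under 1 kb made up 24.5% of the core circRNAs against 16.2% of the others. Spans of 50 kb or more made up 1.48% against 2.68%. These differences were not tested.

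Exons were assigned for 970 members (95.9%), by an exon pair of the host whose span equals that of the circle. The typical core circRNA was made of 2 exons. Circles of 1 exon made up 11% of the members, of 2 exons 42.4% and of 5 or more exons 9.79%. Among the other detected circRNAs the shares were 6.24%, 32.9% and 19.4%. The spliced length had a median of 358 bases in the members and 386 bases in the others. Exon 2 was the first exon of 351 members (36.2%), against 25% of the others. The introns on both sides were longer in the members, with medians of 8406 bases upstream and 7592 downstream, against 5953 and 4812 bases in the others. The coding sequence held the whole circle in 80.9% of the members and in 87.3% of the others. The start codon lay within 158 members (16.3%), against 11% of the others. The share of G and C was similar, at a median of 48.2% in the members and 47.3% in the others.

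**Figure D5:**
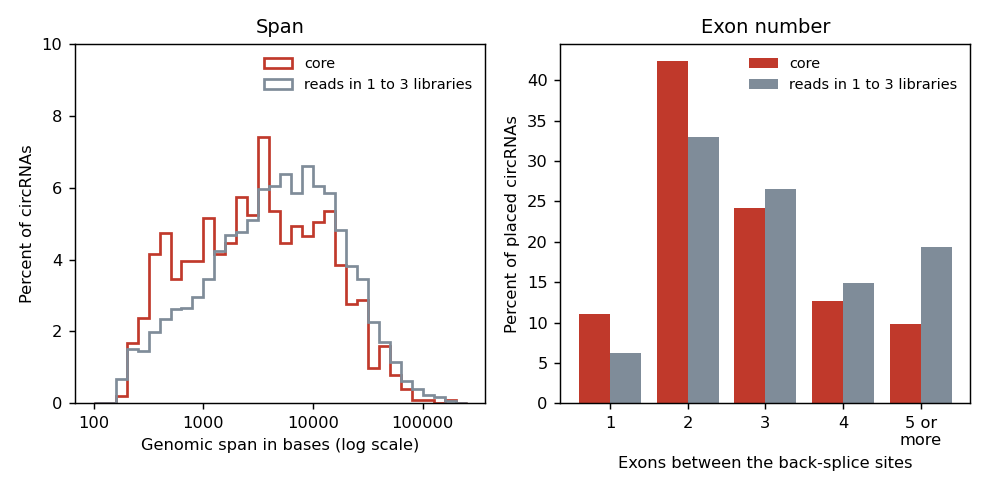
Left, percent of circRNAs by genomic span (log axis) for the 1011 core circRNAs and the 6576 circRNAs with reads in 1 to 3 libraries; right, percent of placed circRNAs by exon number in the same groups. Core circRNAs have a larger share with spans under 1 kb (24.5%) and with 2 exons (42.4%).

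Span and level were only loosely related within the members, with a Spearman correlation of -0.10 across the 1011 circRNAs. The shortest members were single exons of C1orf116 and of FOXK1, a forkhead transcription factor, with 186 bases each. They differed in level, with means of 509 RPM in DDX5 cells against 440 RPM in NC cells for C1orf116 and of 109 RPM in DDX5 cells against 111 RPM in NC cells for FOXK1. Exon 12 of SYMPK, the scaffold symplekin of mRNA 3′ end processing, exon 3 of DBP, a circadian transcription factor, and exon 4 of ZFYVE1 gave the next shortest circles, with 205, 212 and 215 bases. Their groups overlapped in all 3.

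The longest member spanned 167568 bases of ATXN1, which encodes the nuclear protein ataxin-1, and joined exons 3 to 5 into 369 bases without coding sequence. It had 153 and 183 RPM in DDX5 cells against 697 and 306 RPM in NC cells, with a log2 fold change of -1.67 ± 1.14 (SE) and an unadjusted p of 0.144 by edgeR. The other long members came from RERE, a nuclear receptor corepressor with 2 such circles, CTBP2, a transcriptional corepressor, and PTK2, the focal adhesion kinase. The RERE circle of exons 5 to 8 had 625 and 482 RPM in DDX5 cells against 888 and 745 RPM in NC cells. The longer RERE circle lay on the other side, with 434 and 249 RPM in DDX5 cells against 205 and 174 RPM in NC cells. Neither passed the test, with log2 fold changes of -0.65 ± 0.68 and 0.76 ± 1.35 (SE).

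Most hosts gave a single core circRNA: 672 hosts had 1, 111 had 2, 22 had 3 and 11 had 4 or more. In 81 of the 144 hosts with several, at least 2 circles shared a start or an end. Within a host, the core circRNAs held a median of 88.7% of the RPM of all its circles. In 220 hosts no other circRNA was detected, so there the core circRNAs held all of it by definition. MAD1L1 and LRP5 had 6 each, and UBA2, PTK2 and RERE had 5 each.

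UBA2, the catalytic subunit of the SUMO activating enzyme, showed how a few splice sites combine. Its exons 2 and 3 were joined to the ends of exons 5 and 6 in all 4 ways, and the junctions below show what they share.
UBA2 exons 2 to 5, chr19:34430576-34434968, plus strand: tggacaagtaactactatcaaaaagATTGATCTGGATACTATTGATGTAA
UBA2 exons 2 to 6, chr19:34430576-34438766, plus strand: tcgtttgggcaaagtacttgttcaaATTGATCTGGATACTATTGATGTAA
UBA2 exons 3 to 5, chr19:34431861-34434968, plus strand: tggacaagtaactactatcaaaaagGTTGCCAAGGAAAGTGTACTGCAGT
UBA2 exons 3 to 6, chr19:34431861-34438766, plus strand: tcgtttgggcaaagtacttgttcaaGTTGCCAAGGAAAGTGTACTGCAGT

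The circle of UBA2 exons 2 to 5 was the most abundant of the 4, with 1161 and 1396 RPM in DDX5 cells against 957 and 735 RPM in NC cells. Exons 2 to 6 had 689 and 897 RPM in DDX5 cells against 588 and 327 RPM in NC cells. Exons 3 to 5 had 370 and 382 RPM in DDX5 cells against 369 and 306 RPM in NC cells. Exons 3 to 6 had 319 and 731 RPM in DDX5 cells against 588 and 265 RPM in NC cells. In RPM this was the only one of the 4 whose groups overlapped. Exons 3 to 5 were separated only by 370 against 369 RPM, and with TMM factors their groups overlapped too. None passed the test, with log2 fold changes between 0.05 and 0.69.

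The start of LRP5 exon 2 was also used repeatedly. LRP5 is a coreceptor for Wnt ligands. From this start, circles reached the ends of exons 3, 5 and 7, and 1 more circle, whose exons were not assigned, shared the same start. The circle of exons 2 to 5 led with 804 and 748 RPM in DDX5 cells against 560 and 510 RPM in NC cells. Its log2 fold change was 0.43 ± 0.71 (SE). The other 5 circles of LRP5 had log2 fold changes between -0.15 and 0.42, and none passed the test.

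Circles of the same host could lie on different sides of zero. In MAD1L1, exons 6 to 10 had a log2 fold change of 1.75, whereas the circle that adds exon 5 and ends at the same donor had 651 and 299 RPM in DDX5 cells against 383 and 582 RPM in NC cells. Its log2 fold change was -0.11 ± 0.86 (SE). The other 4 circles of MAD1L1 ranged from -0.45 to 0.70. The difference between circles of a host was not tested. In PTK2 the 5 circles ranged from -0.53 to 0.15, with exons 3 to 5 at 804 and 532 RPM in DDX5 cells against 779 and 837 RPM in NC cells.

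The rule did not follow total reads alone: members had totals down to 21 reads, whereas circRNAs with reads in 3 libraries had totals up to 708. A count of 1 does not occur in the table, so a listed 0 may stand for a single read. Just inside the rule, the circle of RERE exon 3 had 2 and 5 reads in DDX5 cells against 10 and 4 reads in NC cells, the smallest total of all members. CHD1L, a chromatin remodeler, had 5 and 5 reads in DDX5 cells against 2 and 14 in NC cells. PLCE1, a phospholipase C, had 15 and 7 reads in DDX5 cells against 2 and 10 in NC cells. In 9 members the lowest library had 2 reads, whereas 934 had at least 5 reads in every library and 701 at least 10.

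Just outside, 955 circRNAs had reads in 3 libraries. Some of these were abundant. A circle of CRKL, an adaptor of tyrosine kinase signaling, had 3126 and 2659 RPM in DDX5 cells against 3704 and 0 RPM in NC cells. A circle of KDM4C, a histone demethylase, had 3254 and 2825 RPM in DDX5 cells against 0 and 2889 RPM in NC cells. A circle of URI1, a prefoldin-like protein, had 2284 and 2609 RPM in DDX5 cells against 2938 and 0 RPM in NC cells. In these circles 1 NC library was listed at 0 while the other 3 libraries had at least 160 reads for CRKL, 170 for KDM4C and 157 for URI1. The empty library was DDX5 replicate 1 for 178 and DDX5 replicate 2 for 367 of the 955, against NC replicate 1 for 217 and NC replicate 2 for 193. DDX5 replicate 2 was the shallowest library, and NC replicate 2, which was empty for the circles of CRKL and URI1, was the deepest. Whether depth accounts for the empty libraries was not tested.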

How the data were processed

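The series holds 4 circRNA-seq libraries of AGS cells, 2 of DDX5 and 2 of NC cells, grouped by their labels. The authors deposited raw back-splice counts for each circRNA. A second table deposited by the authors holds RPM values, which equal the counts per 1000000 back-splice reads of the library to within 0.00499. CIRCexplorer2 and CIRI2 are named in the text of the study, BWA and hg38 in the submitters' processing notes. Versions and the way both callers were combined are unknown here. The smallest count above 0 was 2. 

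Counts were tested as deposited with edgeR 4.0.16 (R 4.3.3): TMM factors, a filter of 10 or more reads over the 4 libraries, the quasi-likelihood test, Benjamini-Hochberg adjustment over all 4671 tested, threshold 0.05. SEs were derived as |log2 fold change|/√F. Since dispersions are shared across circRNAs, replicates of a circle with a small p can still lie far apart. Likewise, a circle whose replicates lie close can have a large p and a wide SE. An exact permutation test of 2 against 2 libraries cannot go below 0.333 (two-sided) and was not used. The script was tested on simulated data. Core circRNAs, host lists, span, exon number and replicate spread are described without a test.

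The members and the gene lists were chosen with earlier results of these data known. Named circRNAs are the 15 with the highest mean RPM, adjusted calls, the 6 smallest p per direction with separated groups, the 5 longest and 5 shortest, the hosts with most members, those with a listed circBase number, those nearest the detection rule and the 3 most abundant of each list (examples of these are given). The values of 1 of these are not reported here. Others were chosen after their values were seen. circBase numbers come from a supplementary table held only in part, so other known circRNAs may be unmatched.

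Deposited coordinates are not those of GRCh38: 90 of 11760 starts equal a GENCODE 29 exon start. A circRNA was therefore placed by the exon pair of its host with the same span, and printed coordinates are of GENCODE 29 on GRCh38. Of the placed circRNAs, 97.6% share their offset with a neighbour. Alternatives were RLE factors, total reads, TMM over the core circRNAs, other filters, DESeq2 1.42.0, edgeR's exact test, limma 3.58.1 on log2(RPM + 1) and log2(RPM + 0.1), the replicate number as a block, each library left out (the library left alone then borrows the spread of the opposite group) and 5 or 10 reads in each library. Python 3.11.15 with pandas 2.3.3 was used for all tables. GO and KEGG terms, qPCR and cell experiments were not analysed here.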

Additional observations from a re-analysis of the deposited data

How the results depend on the processing

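The single adjusted rise, GSE1, was kept with RLE factors, total reads and TMM over the core circRNAs, and there were 0 adjusted rises without a filter, with at least 20 reads, by DESeq2, by edgeR's exact test, by limma with either pseudocount and without any 1 library (0 to 0). The adjusted p of GSE1 over all alternatives ranged from 0.00608 to 1. Its log2 fold change was 1.08 without a filter and with at least 20 reads, 1.12 by DESeq2, 1.05 by the exact test, 1.00 by limma, and 0.18 to 1.62 with 1 library left out, lowest without DDX5 replicate 2 and highest without DDX5 replicate 1. Unadjusted rises, 2 as reported, were 5 with RLE factors, 6 with total reads, 4 by DESeq2, 0 by the exact test and by limma, and 0 to 14 with 1 library left out, lowest without DDX5 replicate 2 and highest without NC replicate 2. Unadjusted falls, 3 as reported, were 5 with at least 20 reads, 0 by the exact test and by limma, and 4 to 10 with 1 library left out, highest without DDX5 replicate 1. The median log2 fold change of -0.04 was 0.06 with total reads and 0.08 by limma with either pseudocount. Its SD of 0.60 was 0.64 by limma with either pseudocount, 0.57 with at least 5 and 0.50 with at least 10 reads in each library, and 0.74 to 0.83 with 1 library left out. Where the counts of circRNAs with separated groups were rescaled, an alternative chosen after seeing the data, 183 above and 130 below in RPM became 151 above and 164 below with TMM over the core circRNAs. Over the 85 named circRNAs, 1179 of 1190 values stayed on the same side of the adjusted p threshold and 11, all of GSE1, lost it. Only GSE1 was past it as reported, so nearly all of the 1179 are circles without a call that stayed so. For 40 of the 85 the sign changed in at least 1 setting, and for 11 with all libraries in the fit. The causes were not tested. The trended biological coefficient of variation had a median of 93.1% over core circRNAs and 234% over the others tested.

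Libraries with the same replicate number did not deviate together: over the 1011 core circRNAs the correlation of their deviations was -0.03, from 2 pairs. With the replicate number as a block there were 0 adjusted rises and 1 unadjusted fall, and GSE1 had a log2 fold change of 0.89 with an adjusted p of 1 by edgeR.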
